A study of Homo sapiens with 12 samples.

Results

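The genes described here are 10 parts of the NF-kB system: the REL family subunits REL, RELA, RELB, NFKB1 and NFKB2, the inhibitors NFKBIA, NFKBIE and TNFAIP3, and the target genes CCL5 and BIRC3. They were taken by gene symbol. All 10 stood among the 27825 named genes counted in the antagonist experiment, and 0 of 10 among the 904 genes listed for the agonist experiment. RNA sequencing was done on 12 libraries of U937, a human pro-monocytic leukaemia cell line, in 4 groups of 3. Per the labels, every group was stimulated with 50 ng/mL interferon gamma and then kept for 72 hours with an antibody, whose concentration the labels write as 5 mg/mL. Set 1 holds a LILRB3 antagonist antibody and its own IgG control, and set 2 a LILRB3 agonist antibody and its own IgG control. LILRB3 is a receptor that restrains myeloid cells, and the comparisons ask how blocking or engaging it changes the transcriptome. All groups come from 1 cell line, and the labels do not say whether libraries came from separate cultures. The p-values therefore measure only how far these samples spread, which may be technical.

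NF-kB factors are dimers of REL family proteins. In resting cells they are held in the cytoplasm by inhibitors of the I-kappa-B type, such as the products of NFKBIA and NFKBIE, and a kinase complex (IKK) marks these inhibitors for destruction when Toll-like, interleukin 1 or TNF receptors fire. The freed dimers enter the nucleus and switch on cytokine, chemokine and survival genes, and they also switch on several of their own inhibitors, which closes the loop. Monocytes and macrophages use this system for their inflammatory response. Transcript levels of its parts are what was measured here, not the activity or location of the proteins.

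Total counts in set 1 were between 17053190 and 18833088 per library. Libraries are numbered by their order in the table, and the numbers pair nothing. IgG library 1 differed most within its group: a chi-square comparison of its counts with IgG libraries 2 and 3 gave 10.4 and 18.7 per degree of freedom, and those 2 libraries gave 4.35. Its deviation from them ran with GC content (Spearman's rho -0.55 across 13456 genes, which are not independent). Across the same genes, the log2 fold change of antagonist over IgG had a rho of 0.28 with GC content and 0.22 with exon length. The myeloid genes CTSG, AZU1, ELANE and LYZ were counted in all 6 libraries, whereas MPO had 2 to 17 and CD14 3 to 9 counts per library. Of 11 tested markers of the myeloid list, 0 were higher and 2 (CTSG and LYZ) lower with the antagonist. Among all genes tested 15.6% were higher and 20.5% lower. With IgG the summed level of the 12 listed genes was 6038 to 6535 CPM (counts scaled to a common library total). With the antagonist it was 5339 to 5526 CPM. This sum mostly follows CTSG, with 55089 to 61466 raw counts per IgG library and 44546 to 48457 per antagonist library. Raw counts did not fall for AZU1 (20815 to 22101 and 21694 to 23247) or SPI1 (3971 to 4782 and 4639 to 4993). The 5 T and NK cell markers (1 tested, 0 called) summed to 1.53 to 3.26 CPM with IgG and 2.65 to 3.42 CPM with the antagonist. The 4 epithelial and fibroblast markers (1 tested, 0 called) summed to 0.860 to 1.22 CPM and 0.496 to 2.04 CPM, with EPCAM at 0. The part of these shifts in the values below was not tested.

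Several of these promoters hold letters of the NF-kB consensus, and 3 are shown because their genes differed in the data: REL was higher with the antagonist, NFKBIA lower, and TNFAIP3 did not pass the test. The sequences are from RefSeq (GRCh38.p14), 5′ to 3′ on the strand of the gene, from 250 bases before to 50 bases after a transcription start, which for TNFAIP3 lies inside the gene span given below. Capitals mark matches to the degenerate NF-kB consensus of 10 bases, searched on both strands, with overlapping matches joined.
REL, chr2:60881324-60881623, plus strand: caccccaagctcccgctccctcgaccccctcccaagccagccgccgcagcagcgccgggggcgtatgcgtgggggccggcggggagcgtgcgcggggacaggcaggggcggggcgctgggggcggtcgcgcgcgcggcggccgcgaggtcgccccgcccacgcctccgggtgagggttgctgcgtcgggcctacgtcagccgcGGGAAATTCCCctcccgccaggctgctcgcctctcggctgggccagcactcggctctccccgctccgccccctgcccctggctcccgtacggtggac
NFKBIA, chr14:35404700-35404999, minus strand: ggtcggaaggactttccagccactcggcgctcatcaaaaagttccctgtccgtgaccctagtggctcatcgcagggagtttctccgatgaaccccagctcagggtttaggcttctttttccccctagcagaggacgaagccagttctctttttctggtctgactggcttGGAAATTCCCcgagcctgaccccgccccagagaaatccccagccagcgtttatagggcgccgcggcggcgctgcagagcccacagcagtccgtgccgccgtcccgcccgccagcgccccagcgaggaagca
TNFAIP3, chr6:137867009-137867308, plus strand: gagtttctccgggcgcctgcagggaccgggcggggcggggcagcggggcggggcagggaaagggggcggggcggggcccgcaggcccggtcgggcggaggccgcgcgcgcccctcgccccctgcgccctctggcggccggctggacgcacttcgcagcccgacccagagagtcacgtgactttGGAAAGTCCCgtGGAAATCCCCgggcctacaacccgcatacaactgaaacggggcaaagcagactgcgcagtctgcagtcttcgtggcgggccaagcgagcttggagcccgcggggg
The REL match spans 11 bases, since GGGAAATTCC on one strand and GGAAATTCCC on the other overlap, and it lies 47 to 37 bases before the start. In NFKBIA the match GGAAATTCCC lies 81 to 72 bases before the start, and TNFAIP3 holds GGAAAGTCCC and GGAAATCCCC within 67 to 46 bases of it. Of the 7 genes with an entry (REL, RELA, NFKB1, NFKB2, NFKBIA, TNFAIP3 and BIRC3), 6 had a match in at least 1 of their 11 start windows, RELA having 0 in 2 windows. Counted by window, 7 of these 11 held a match, and 5.91% of all 35116 windows of this length did. A match describes letters in a window and says nothing of binding in these cells.

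With the antagonist antibody, 2 of the 10 genes were higher than with IgG, 3 were lower and 5 did not pass the test. The subunit genes REL and RELA were higher, and the subunit genes RELB, NFKB1 and NFKB2 did not pass. The inhibitors NFKBIA and NFKBIE and the chemokine gene CCL5 were lower, and the inhibitor TNFAIP3 did not pass. RELA and NFKBIA each passed in 6 of 11 alternative settings. The called changes were all under 1.5-fold. Among all 13778 tested genes the share with an edgeR adjusted p under 0.05 was 36.1%, with 15.6% higher and 20.5% lower, against 5 of 10 here. With 1 library left out the share over all genes depended on which library it was. It was lowest without antagonist library 1 (22.5%) or antagonist library 3 (22.9%). Without IgG library 1 it was 35.5% and without IgG library 3 36.2%. Of all calls 43.1% were higher, and 65.4% when column totals replaced TMM scaling. The median log2 fold change of the 10 genes was 0.00 and that of all genes tested -0.01, and the median absolute values were 0.22 and 0.23. The groups did not overlap for 5 of the 10 genes and for 49.0% of all genes. As a bulk measurement, a difference cannot tell a change in RNA per cell from a change in the mix of cells. All CPM values are TMM-scaled unless another scale is named.

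**Figure D1:**
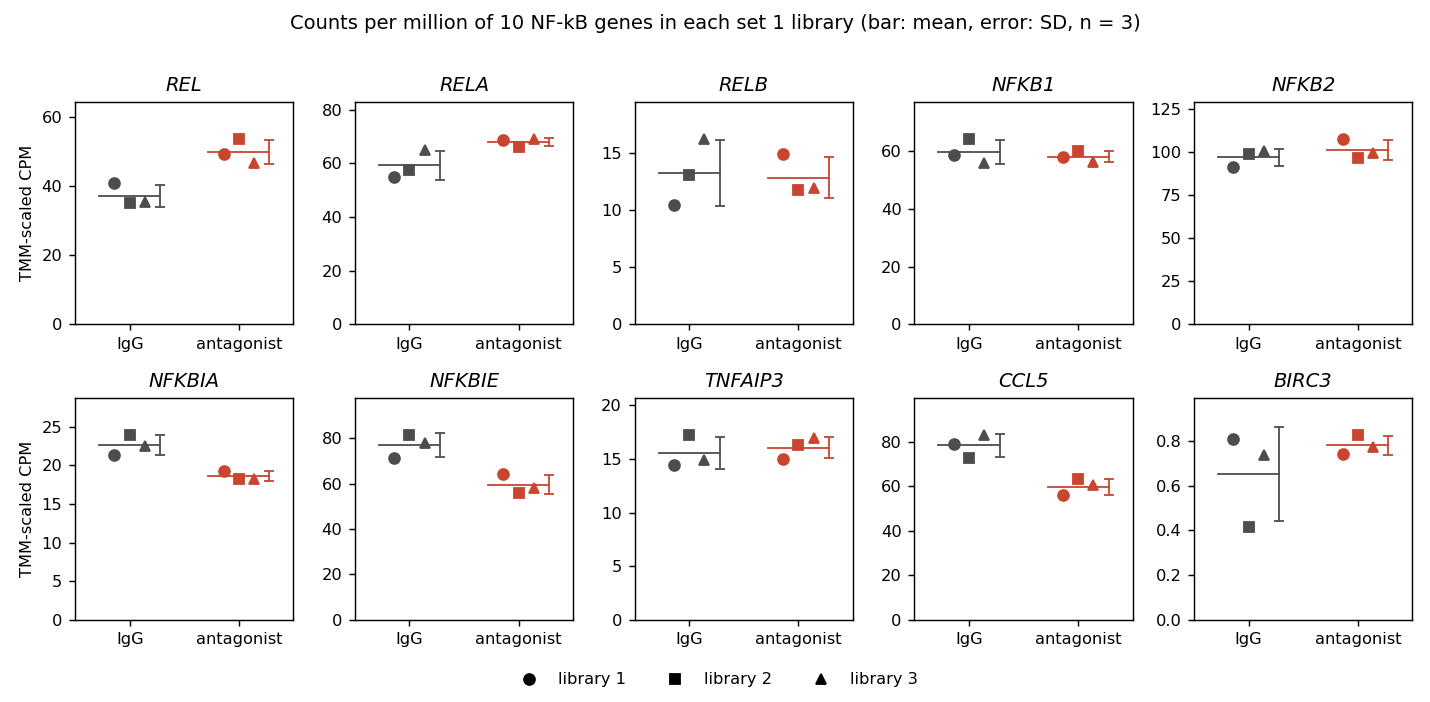
TMM-scaled CPM (vertical axes, from 0) of the 10 genes in the 3 IgG and 3 antagonist libraries of set 1, with the mean and SD of each group. REL and RELA lie higher in all 3 antagonist libraries, NFKBIA, NFKBIE and CCL5 lower, and the groups of the other 5 genes overlap.

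Of the subunits, REL (chromosome 2, 60881574 to 60931612, GRCh38.p14, plus strand), which encodes the subunit c-Rel, had 40.8, 35.2 and 35.5 CPM in the IgG libraries. It had 49.3, 53.7 and 46.7 CPM in the antagonist libraries. Every antagonist library was above every IgG library, and IgG library 1 was the closest to them. The fold was 1.34, a log2 fold change of 0.42 ± 0.08 (SE; 95% interval 0.25 to 0.60), with an edgeR adjusted p of 0.00195. Without IgG library 1 the log2 fold change was 0.52, and across 11 alternatives it was 0.37 to 0.52 with adjusted p-values up to 0.0151. The longest REL transcript has a GC content of 38.7%, in the low range where IgG library 1 ran high. A non-coding gene of the same strand, AC010733.2, covers 50.7% of the exon bases of REL in GENCODE release 29, so reads there could belong to either. Of 10528 genes compared with REL over the 6 libraries, 3 had the most similar profile by root mean square difference of centred log2 CPM. These were ADAT2 (0.0146), CCDC14 (0.0187) and RANBP6 (0.0203).

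RELA (chromosome 11, 65653601 to 65663857, minus strand) encodes p65, the main activating partner in the classical dimer. It had 55.1, 57.5 and 65.2 CPM with IgG and 68.7, 66.3 and 69.1 CPM with the antagonist. The groups did not overlap, although IgG library 3 and antagonist library 2 were close. The log2 fold change was 0.20 ± 0.07 (95% interval 0.05 to 0.35, adjusted p = 0.0446), a fold of 1.15. This call was lost without IgG library 2 (0.20, adjusted p = 0.101), antagonist library 1 (0.19, 0.14), antagonist library 2 (0.22, 0.0733) or antagonist library 3 (0.19, 0.143). It was also lost after removal of length and GC trends (0.09, adjusted p = 0.18). RELA was thus past the threshold in 6 of 11 alternatives, while all 11 values lay above zero.

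The other subunit genes did not pass the test. RELB (chromosome 19, 45001464 to 45038192, plus strand), the partner of p52 in the alternative pathway, had 10.5, 13.1 and 16.2 CPM with IgG and 14.9, 11.7 and 11.9 CPM with the antagonist. Its groups overlapped, and its spread within IgG was wide, so that the 95% interval of its log2 fold change ran from -0.38 to 0.29 (adjusted p = 0.855). NFKB1 (chromosome 4, 102501359 to 102617302, plus strand) encodes p105, the precursor of p50. It had 58.9, 64.3 and 56.1 CPM with IgG and 58.1, 60.2 and 56.3 CPM with the antagonist, a log2 fold change of -0.04 ± 0.07 (95% interval -0.19 to 0.11, adjusted p = 0.695). NFKB2 (chromosome 10, 102394110 to 102402529, plus strand) encodes p100, the precursor of p52. It had 91.6, 98.9 and 101 CPM with IgG and 108, 96.6 and 99.8 CPM with the antagonist, a log2 fold change of 0.06 ± 0.06 (95% interval -0.08 to 0.20, adjusted p = 0.49). After removal of length and GC trends, NFKB1 (-0.15, adjusted p = 0.0391) and NFKB2 (-0.14, adjusted p = 0.0409) were called lower, with 40.3% of all genes called in that fit. The GC content of the longest transcript is 65.4% for RELB, 62.4% for NFKB2 and 50.1% for NFKB1.

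NFKBIE and NFKBIA encode I-kappa-B epsilon and I-kappa-B alpha, which hold REL dimers in the cytoplasm. NFKBIE (chromosome 6, 44258166 to 44265551, minus strand) had 71.1, 81.5 and 78.1 CPM with IgG. It had 64.2, 56.1 and 58.1 CPM with the antagonist. All antagonist libraries were below all IgG libraries, with antagonist library 1 nearest to them. The fold was 0.773 (log2 fold change -0.37 ± 0.07, 95% interval -0.53 to -0.21, adjusted p = 0.00233). Across 11 alternatives the value was -0.48 to -0.29 and stayed past the threshold, at -0.40 without IgG library 1 and -0.48 with length and GC trends removed.

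NFKBIA (chromosome 14, 35401513 to 35404749, minus strand), the best known early target of NF-kB, had 21.3, 24.0 and 22.5 CPM with IgG and 19.3, 18.3 and 18.2 CPM with the antagonist. The groups did not overlap, and the antagonist libraries lay close to each other. Its fold was 0.823 (log2 fold change -0.28 ± 0.08, 95% interval -0.46 to -0.10, adjusted p = 0.0207). It no longer passed when IgG library 2 (-0.22, adjusted p = 0.115), antagonist library 2 (-0.27, 0.0593) or antagonist library 3 (-0.27, 0.0765) was left out, with column totals (-0.20, 0.0917) or with DESeq2 (-0.26, 0.0624). Without IgG library 1 it stayed called (-0.30, adjusted p = 0.0127).

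TNFAIP3 (chromosome 6, 137866349 to 137883312, plus strand) encodes A20, a ubiquitin-editing enzyme that shuts down signalling upstream of IKK. It had 14.5, 17.3 and 14.9 CPM with IgG and 15, 16.3 and 16.9 CPM with the antagonist. The groups overlapped, with a log2 fold change of 0.05 ± 0.10 (95% interval -0.17 to 0.27, adjusted p = 0.748). Its interval therefore holds smaller falls and rises alike.

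CCL5 (chromosome 17, 35871491 to 35880360, minus strand) encodes RANTES, a chemokine that draws T cells and monocytes. It had 78.9, 72.8 and 83.1 CPM with IgG. It had 56.0, 63.1 and 60.4 CPM with the antagonist, so every antagonist library was below every IgG library. The fold was 0.765 (log2 fold change -0.39 ± 0.07, 95% interval -0.54 to -0.23, adjusted p = 0.00153), with -0.43 to -0.31 across 11 alternatives, all past the threshold, and -0.35 without IgG library 1. The profiles most like that of CCL5 by the measure used for REL were those of the nuclear pore gene NDC1 (0.0322), the mitochondrially encoded ND4 (0.0341) and the translation factor gene EIF3H (0.0366).

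BIRC3 (chromosome 11, 102317484 to 102339403, plus strand) encodes cIAP2, a ubiquitin ligase of TNF receptor complexes that NF-kB induces in many cells. It was counted 15, 7 and 12 times in the IgG libraries and 13, 15 and 14 times in the antagonist libraries. These are levels below 1 CPM in every library. The 95% interval of its log2 fold change was -0.53 to 1.03 (adjusted p = 0.619), so a fall or a rise inside that interval remains compatible with these counts.

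Divided by exon length, the levels of the 10 genes covered a wide range. In the IgG libraries CCL5 was highest, at 54.8 ± 3.6 CPM per kb (SD, n = 3), followed by NFKBIE (29.8 ± 2.1), NFKB2 (26.4 ± 1.4) and RELA (17.5 ± 1.6). NFKBIA (11.9 ± 0.7) and NFKB1 (10.8 ± 0.8) overlapped, as did REL (3.30 ± 0.28) and TNFAIP3 (3.28 ± 0.32), and RELB stood between these pairs at 5.77 ± 1.25. BIRC3 was lowest at 0.0944 ± 0.0302 CPM per kb. With the antagonist no neighbours in the order overlapped. NFKB2 stood above NFKBIE there (27.5 ± 1.6 and 23.0 ± 1.6), NFKB1 above NFKBIA (10.5 ± 0.4 and 9.79 ± 0.32), and REL above TNFAIP3 (4.43 ± 0.31 and 3.39 ± 0.21). The exon length of REL holds all annotated exons, 11.255 kb, so its level per kb depends on how much of that length is used.

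**Figure D2:**
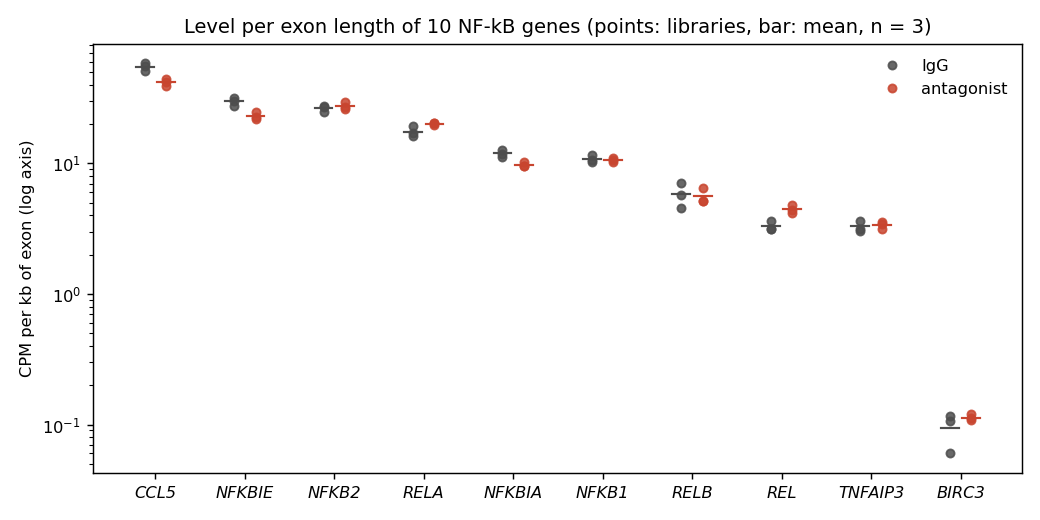
CPM per kb of exon (log axis) of the 10 genes in the 3 IgG (grey) and 3 antagonist (red) libraries, ordered by the IgG mean (short bars). CCL5 is highest and BIRC3 lowest in both groups, and REL and TNFAIP3 overlap with IgG but not with the antagonist.

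The makeup of the subunit pool on the scale of CPM per kb was dominated by NFKB2, which took 41.4% ± 0.4 of the summed level of the 5 subunits with IgG and 40.4% ± 0.9 with the antagonist (SD, n = 3). RELA took 27.4% ± 1.2 and 29.5% ± 0.9, and REL 5.2% ± 0.73 and 6.51% ± 0.57. The REL share had a range of 4.70% to 6.05% with IgG and of 6.18% to 7.16% with the antagonist. The summed level of NFKBIA and NFKBIE over that of the 5 subunits was 0.654 ± 0.030 with IgG and 0.481 ± 0.012 with the antagonist. These sums were formed with the single-gene results known and have no test.

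**Figure D3:**
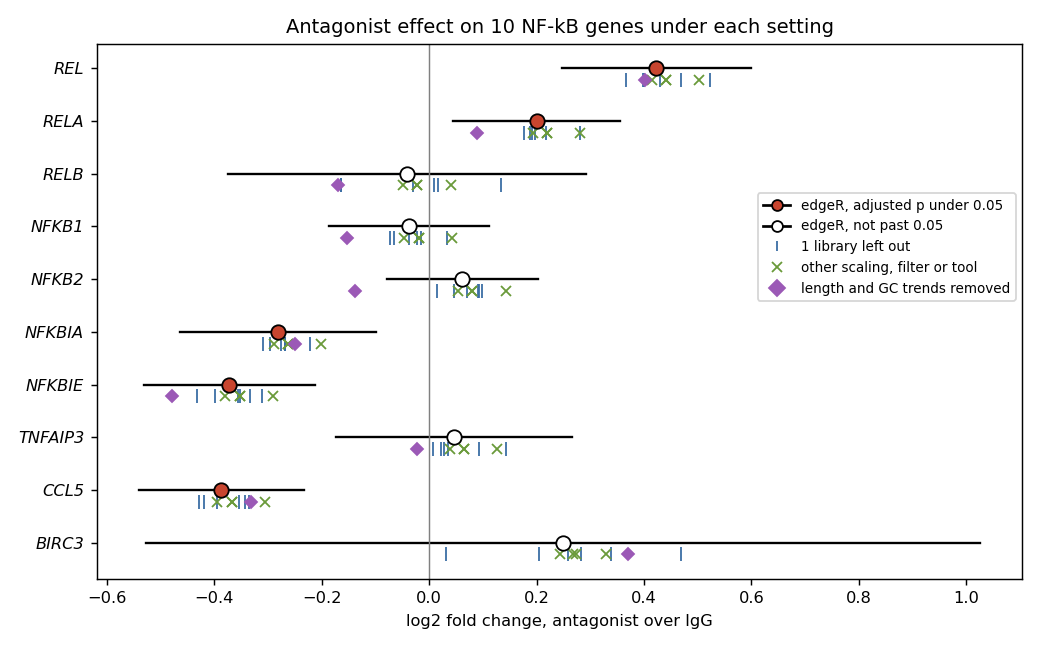
Log2 fold change of antagonist over IgG (horizontal axis) for the 10 genes: circles with 95% intervals are edgeR values, red where the adjusted p is under 0.05, and the marks under them are the alternatives. REL, NFKBIE and CCL5 keep to 1 side of zero at distances of at least 0.29, while NFKB2 lies above zero except after removal of length and GC trends (-0.14).

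Other genes of the pathway included calls in both directions with the antagonist, and the counts below stand beside 15.6% of all tested genes called higher and 20.5% called lower. Of 4 other genes of the I-kappa-B type, 2 were higher and 0 lower (median log2 fold change 0.38 against -0.01 for all genes tested). NFKBID, a nuclear I-kappa-B protein that modifies REL dimers on DNA, had 13.9, 15.3 and 16.9 CPM with IgG and 22.2, 18.4 and 19.9 CPM with the antagonist, without overlap (0.39 ± 0.10, adjusted p = 0.0112). BCL3, a nuclear partner of p50 and p52, had 16.6, 16.5 and 19.0 CPM and 25.5, 20.3 and 21.7 CPM (0.38 ± 0.10, adjusted p = 0.0142). NFKBID lost its call without antagonist library 1 (0.32, adjusted p = 0.0702). BCL3 lost it without that library (0.28, 0.0888) and when length and GC trends were removed (0.23, 0.0521). The remaining pair, described here after their values were seen, did not pass: NFKBIZ, another nuclear member, was at 0.44 ± 0.18 (adjusted p = 0.0748), and NFKBIB, a cytoplasmic inhibitor, at -0.02 ± 0.09 (adjusted p = 0.908).

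Few ligand and receptor genes were called, and the 3 of 17 tested that were lower are a share near that of all genes (20.5%). Of 11 ligand genes 6 were tested, with 0 higher and 1 lower (median -0.26). That gene was TNFSF13B, which encodes the B cell survival factor BAFF and had 132, 121 and 131 CPM with IgG against 99.5, 101 and 86.8 CPM with the antagonist (-0.42 ± 0.07, adjusted p = 0.000923), and it was at -0.25 with length and GC trends removed. TNF itself had 1 count with IgG and 0 with the antagonist, each over 3 libraries, and the interleukin gene IL1A had 5 and 7. Of 18 receptor genes 11 were tested, with 0 higher and 2 lower (median -0.17). TNFRSF1A, the main TNF receptor, fell from 150, 141 and 157 CPM to 119, 125 and 125 CPM (-0.28 ± 0.06, adjusted p = 0.00359), whereas TLR4, the endotoxin receptor, passed (-0.25 ± 0.09, adjusted p = 0.0425) but lost its call in 10 of 11 alternatives, at -0.29 to -0.17, among them each single library left out.

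All 32 adaptor and kinase genes were tested, with 6 higher, 4 lower and a median of 0.04, against 36.1% called among all genes. The largest rises were those of TRAF1, an adaptor of TNF receptors, from 2.74, 3.91 and 2.94 to 5.48, 4.74 and 6.0 CPM (0.76 ± 0.18, adjusted p = 0.00646). MAP3K14, the kinase NIK of the alternative pathway, rose from 4.36, 4.03 and 3.18 to 5.77, 5.85 and 6.67 CPM (0.65 ± 0.16, adjusted p = 0.00769) and lost its call after removal of length and GC trends (0.43, 0.0523). The largest falls were those of RIPK2, the kinase of NOD receptors (-0.37 ± 0.10, adjusted p = 0.0153), and CHUK, the IKK alpha subunit (-0.36 ± 0.11, adjusted p = 0.0252). RIPK2 lost its call in 5 of 11 alternatives, among them leaving out IgG library 2 (-0.35), antagonist library 2 (-0.34) and antagonist library 3 (-0.35). CHUK lost its call in 6 of 11, among them leaving out IgG library 1 (-0.28), antagonist library 1 (-0.31) and antagonist library 3 (-0.32).

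The other IKK subunits, chosen after their values were seen, moved opposite to CHUK. IKBKB, the IKK beta kinase, was at 0.33 ± 0.06 (adjusted p = 0.00183) and past the threshold in 11 of 11 alternatives. IKBKG, the regulatory subunit NEMO, was at 0.33 ± 0.11 (adjusted p = 0.0296). IKBKG lost its call without antagonist library 1 (0.32), antagonist library 2 (0.35) or antagonist library 3 (0.33), was at 0.21 with length and GC trends removed, and has a near-identical pseudogene that can share its reads.

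Of 14 negative regulators 13 were tested, with 0 higher and 2 lower (median 0.05), against 20.5% of all genes lower. COMMD1, which promotes removal of RELA from chromatin, fell from 25.6, 22 and 20.7 to 18.2, 16.4 and 14.5 CPM (-0.48 ± 0.11, adjusted p = 0.00523). TAX1BP1, an adaptor of A20, was at -0.29 ± 0.06 (adjusted p = 0.00259). Both passed in 11 of 11 alternatives.

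Of 32 further target genes 16 were tested, with 3 higher and 6 lower (median -0.13), against 15.6% and 20.5% of all genes. Many classical targets were near zero: CXCL8 had 9 counts in each group, IL6 had 1 and 0, and CXCL1, CCL4 and IL12B had 0 in all 6 libraries. The mitochondrial superoxide dismutase gene SOD2 fell from 93.4, 78.8 and 77.6 to 64.9, 66.6 and 63.4 CPM (-0.36 ± 0.08, adjusted p = 0.00322), and at -0.24 without IgG library 1 it stayed called. CFLAR, a caspase 8 regulator, rose from 61.0, 57.8 and 58.5 to 71.8, 74.2 and 73.5 CPM (0.31 ± 0.06, adjusted p = 0.00201), a call lost after removal of length and GC trends (0.09, 0.148). IL23A, a cytokine subunit gene, was at 0.44 ± 0.16 (adjusted p = 0.0439) and lost its call without IgG library 1 (0.45), IgG library 3 (0.39), antagonist library 2 (0.38) or antagonist library 3 (0.38), and with the DESeq2 test (0.46, adjusted p = 0.0627). CD83, a maturation marker, was at -0.40 ± 0.14 (adjusted p = 0.0465) and lost its call in 11 of 11 alternatives (-0.47 to -0.32). ICAM1, an adhesion receptor chosen after its value was seen, did not pass (-0.05 ± 0.08, adjusted p = 0.606).

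**Figure D4:**
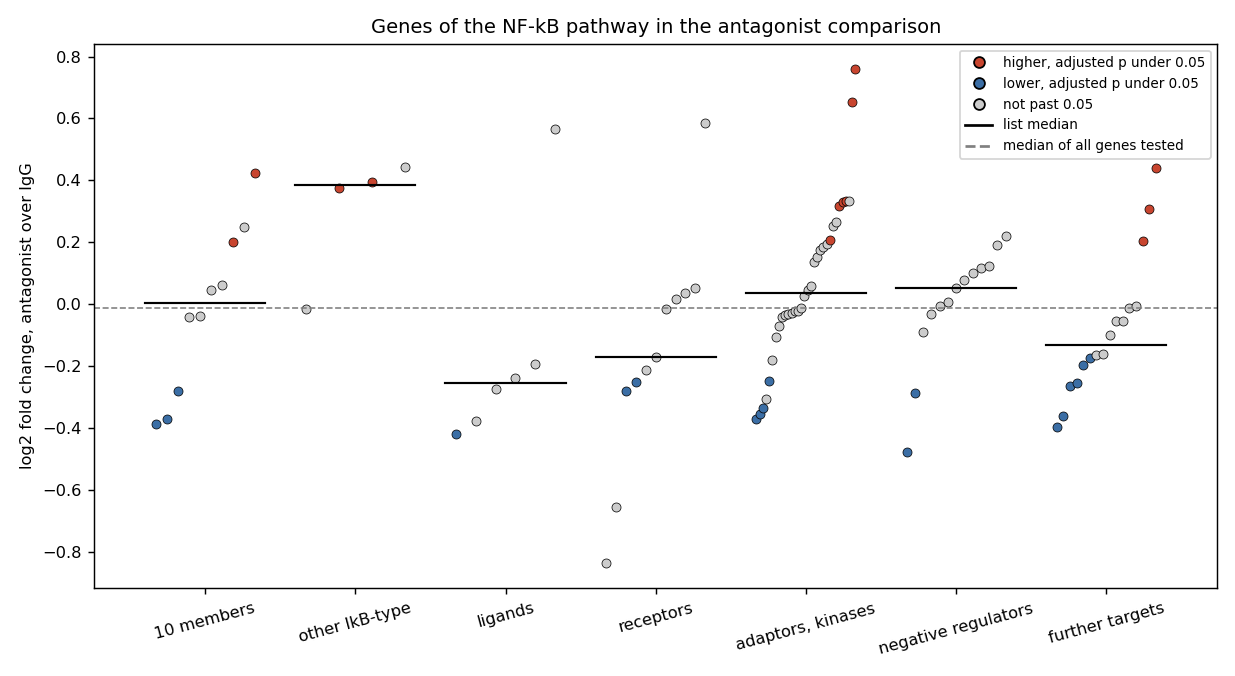
Log2 fold change of antagonist over IgG (vertical axis) for each tested gene of the 10 members and 6 further lists, with list medians (black bars) and the median of all genes tested (dashed line, -0.01). Red points were called higher and blue points lower. Among the 32 adaptors and kinases 6 are red and 4 blue, and receptors and ligands hold 0 red and 3 blue points. Of all genes tested, 15.6% were called higher and 20.5% lower.

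In the agonist comparison the 10 genes could not be examined, since none is listed in that table. The 904 listed genes have log2 fold changes no nearer to zero than -0.25 and 0.12, and 99.9% of them had an edgeR adjusted p under 0.05 (55.6% higher, 44.2% lower). The table was therefore taken to hold genes selected for change. Adjusted p-values cover listed genes only, which are not independent evidence of change, and a gene that is not listed has no value here. Among the other pathway genes, 13 are listed, 10 of them higher with the agonist and 3 lower. With DESeq2 size factors in place of TMM, the higher share of all calls went from 55.7% to 44.2%, so the zero point is uncertain. Values below are CPM of listed counts.

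The only I-kappa-B type gene listed was NFKBID. It had 127, 129 and 108 CPM with IgG and 148, 158 and 154 CPM with the agonist (0.34 ± 0.10, adjusted p = 0.00708). It was thus higher with each antibody over its own IgG, and the difference between the 2 effects was 0.05 ± 0.15 (95% interval -0.26 to 0.36, adjusted p = 0.784 over the shared genes). Of all 900 shared genes tested for that difference, 56.7% passed. The agonist value of NFKBID was 0.25 to 0.39 across 10 alternatives. Since listed genes were taken as selected for change, the shared direction is not independent evidence.

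CD14, the co-receptor of TLR4, rose from 104, 102 and 82.7 to 184, 186 and 180 CPM (0.93 ± 0.11, adjusted p = 9.16e-05). RIPK1, a kinase of the TNF receptor complex, fell from 69.4, 58.7 and 103 to 40.6, 55.1 and 36.9 CPM (-0.81 ± 0.21, adjusted p = 0.00358). IgG library 3 was far above the other IgG libraries for RIPK1. Leaving out each library in turn and the scaling alternatives gave values from -0.99 to -0.54. With the antagonist RIPK1, outside the naming rule there, was at -0.25 ± 0.09 (adjusted p = 0.0427), a call lost in 10 of 11 alternatives.

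Of the 8 listed targets 6 were higher and 2 lower, against 55.6% and 44.2% of all 904 listed genes. With the zero point uncertain, these counts say nothing particular about the targets. MMP9, a matrix protease, rose from 2172, 2393 and 2173 to 4002, 3556 and 3576 CPM (0.72 ± 0.06, adjusted p = 1.19e-05). NINJ1, a membrane rupture protein, rose from 385, 375 and 328 to 527, 482 and 509 CPM (0.48 ± 0.08, adjusted p = 0.000295). The chemokine gene CXCL10 fell from 228, 222 and 248 to 159, 142 and 160 CPM (-0.60 ± 0.09, adjusted p = 0.000218), and the growth regulator MYC from 447, 498 and 467 to 321, 299 and 324 CPM (-0.58 ± 0.07, adjusted p = 0.000169). The groups did not overlap for these 4 genes, nor for any other of the 8 listed targets. The listed genes were taken as selected for change, so this sets none of them apart. Of the listed negative regulators, ZC3H12A, an RNase that degrades cytokine mRNAs, was at 0.26 ± 0.09 (adjusted p = 0.0113) and SIGIRR, an inhibitory receptor of the interleukin 1 family, at 0.25 ± 0.09 (adjusted p = 0.0224). Both lost their calls without IgG library 3 of set 2 (0.20 and 0.17) and with DESeq2 size factors (0.16 and 0.15). Agonist library 1 was the most distant in its group, at 24.9 and 26.6 chi-square units per degree of freedom from libraries 2 and 3, which were 3.73 apart. Without it CD14 was at 0.93, RIPK1 at -0.76, MMP9 at 0.67, NINJ1 at 0.45, CXCL10 at -0.63 and MYC at -0.59, all still called.

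**Figure D5:**
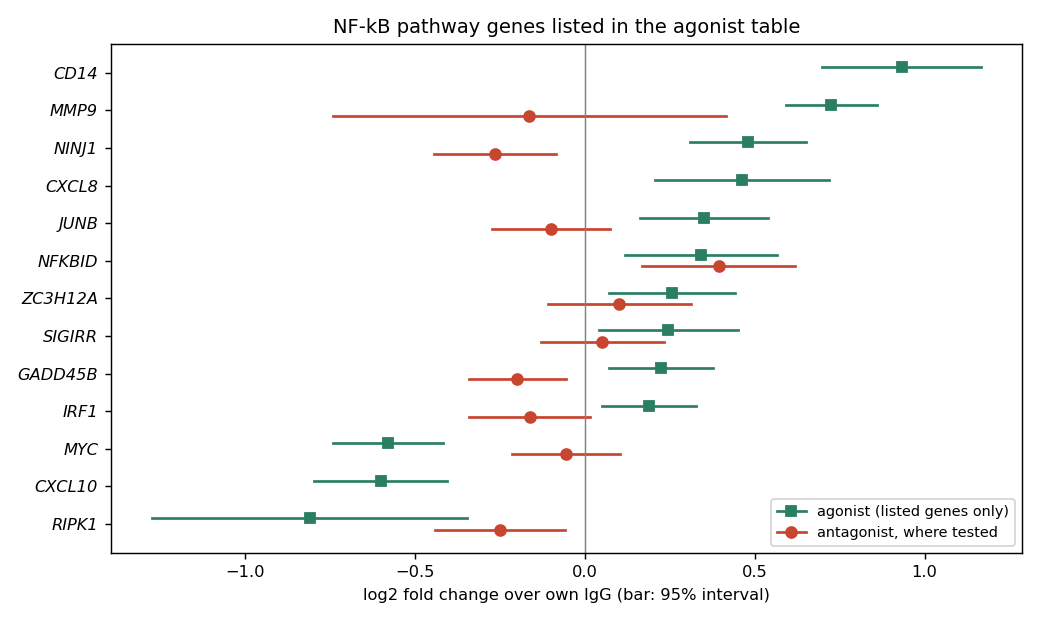
Log2 fold change over the own IgG group, with 95% intervals, of the 13 pathway genes listed for the agonist (green squares) and of the same genes with the antagonist where they were tested (red circles). NFKBID lies above zero with both antibodies, while NINJ1 and GADD45B lie above zero with the agonist and below it with the antagonist. IRF1, JUNB and MMP9 also have opposite signs, but their antagonist intervals hold zero.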

How the data were processed

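RNA sequencing counts of 12 U937 libraries in 4 groups of 3 were analysed. The authors deposited whole-number read counts per gene symbol, 1 table per set, without normalization. Per the submitters' processing notes, HISAT2 and Cufflinks were used with build hg38. The sources used here do not give versions, the counting program, the annotation or strand use. Columns carry group names without replicate numbers and were assigned to groups only. Rows without a symbol (570 of 28395 in set 1, 0.0678% to 0.105% of counts) stayed out.

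Counts were tested with edgeR 4.0.16 (R 4.3.3): filterByExpr at its defaults, TMM scaling, the robust quasi-likelihood test within each set, Benjamini-Hochberg adjustment over all genes tested, called at 0.05. SE is the absolute log2 fold change over the square root of F. The difference between antibodies was an interaction over shared genes, each set scaled on its own. All 10 members passed the filter, so the planned test of summed counts was not needed. The script was tested on simulated data. Alternatives were DESeq2 1.42.0 size factors, column totals, no filter, the DESeq2 test, each library left out and, added after the data were seen, removal of length and GC trends (loess on GENCODE release 29 values, 97.7% of tested genes matched). The 10 genes, the 6 further lists and the marker lists were chosen with earlier results of these data known. Of the marker lists, 2 are not reported here. From each further list up to 4 called genes with the largest absolute log2 fold change were named, and for REL and CCL5 the 3 most similar profiles among genes of at least 5 CPM. Exon lengths are unions over the GENCODE basic set. Coordinates are from RefSeq.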

Additional observations from a re-analysis of the deposited data

Results flagged for a closer look

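Among the named pathway genes present in both tables, 4 passed the edgeR interaction test of antagonist against agonist effect. This test ran over the shared genes, where 56.7% of all 900 passed. Of the 13 listed pathway genes 7 passed, a share near that background, so passing says nothing particular about them. The difference (antagonist minus agonist, log2) was -1.72 ± 0.45 for CD14 (adjusted p = 0.0037), -0.89 ± 0.23 for MMP9 (adjusted p = 0.00368), -0.74 ± 0.12 for NINJ1 (adjusted p = 7.4e-05) and 0.52 ± 0.10 for MYC (adjusted p = 0.000517). All 4 were past the threshold in 14 of 14 alternatives. In set 1 CD14 was below the count filter, with 22 IgG and 13 antagonist counts, and has no antagonist test of its own. It entered the interaction through its counts in set 2, and no antagonist effect can be read from its difference. MMP9 rested on 98 and 91 counts in set 1. NINJ1 was lower with the antagonist (-0.26 ± 0.08, adjusted p = 0.0266), a call lost in 7 of 11 alternatives (-0.30 to -0.18 over all), and MYC was at -0.05 ± 0.07 (adjusted p = 0.591). The agonist table was taken to hold genes selected for change, so a gene near zero with the antagonist can be set up to differ by that selection, and the zero point of the agonist effects is uncertain. The other 3 of the 7, described after their values were seen, were GADD45B (-0.42 ± 0.10, adjusted p = 0.00157), IRF1 (-0.35 ± 0.10, 0.00623) and JUNB (-0.45 ± 0.13, 0.00766). The difference for RIPK1 was 0.56 ± 0.25 (adjusted p = 0.0617) and passed in 5 of 14 alternatives.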

How the results depend on the processing

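The number of set 1 genes called was 4978, and 3143 to 5075 with 1 library left out (3143 without antagonist library 1, 3190 without antagonist library 3). Of the 10 members, 1 to 2 were called higher and 2 to 3 lower with 1 library left out, and 1 and 5 when length and GC trends were removed. Of all genes tested, 22.5% to 36.2% were called with 1 library left out. With the trends removed 40.3% were called, 2008 genes higher and 3540 lower, against 2147 and 2831 in the main fit. REL, NFKBIE and CCL5 passed under all 11 alternatives, and RELA and NFKBIA under 6 each. Some log2 fold changes without a call in edgeR changed sign. With column totals RELB was at 0.040, NFKB1 at 0.042, NFKBIB at 0.066, MYC at 0.027 and ICAM1 at 0.027. With length and GC trends removed NFKB2 was at -0.14 and TNFAIP3 at -0.023. NFKBIB was at 0.00404 with DESeq2 size factors and 0.0039 with the DESeq2 test. With 1 library left out RELB was at -0.16 to 0.13, NFKB1 at -0.073 to 0.033, NFKBIB at -0.040 to 0.068, MMP9 at -0.31 to 0.083, MYC at -0.11 to 0.015 and ICAM1 at -0.11 to 0.0072. The difference between antibodies for NFKBID was -0.024 without antagonist library 1. The cause was not tested. No paired analysis was possible because the columns carry no replicate numbers. At this depth BIRC3 and other genes under about 1 CPM have wide intervals.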

Other observations

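Some inflammatory genes had very different raw counts in the 2 tables, although the labels give interferon gamma for both sets. The column names carry IFN in set 1 only. Summed over the 3 IgG libraries, the chemokine genes CXCL10 and CXCL8 had 0 and 9 counts in set 1 and 2165 and 806 in set 2. CD14 had 22 and 892 and MMP9 98 and 20790. MYC went the other way, with 18698 counts in set 1 and 4358 in set 2. Counts lay nearer to each other for NFKBID (793 and 1123), JUNB (4633 and 6405) and RIPK1 (1006 and 722). The tables were deposited separately and the library totals of set 2 are not known, so these are counts and not levels, and no test was made.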
